A study of Mus musculus with 4 samples.

Results

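This report describes 32288 CpG sites that stayed methylated when mouse ES cells were moved from serum containing media to 2i + Vitamin C. The sites were chosen by their values in the WT libraries: at least 10 reads in both WT libraries, at least 80% methylation in serum and at least 70% in 2i + Vitamin C. They made up 19.07% of 169352 serum-methylated sites, and 628419 CpG sites had 10 reads in both WT libraries. The other 137064 serum-methylated sites fell below 70% in WT 2i + Vitamin C and serve here as the background. Across the series, 981048 CpG sites had 10 reads in at least 1 library.

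The study compared Chr4-cl WT and Chr4-cl KO ES cells, the KO cells lacking a cluster of KRAB-ZFP genes on chromosome 4, and grew both in standard media with FCS and LIF or for a week in 2i media with vitamin C. Methylation was measured by RRBS, in which MspI cuts genomic DNA at CCGG so that CpG-rich fragments are sequenced after bisulfite conversion. There were 4 libraries, 1 for each genotype and medium, and no difference has a replicate check. The Chr4-cl KO cells derive from ES cells of a mixed mouse strain that carries a Cre-ERT transgene at Rosa26, and the study picked single WT and KO clones, so genotype and clone cannot be told apart. Summed over CpG sites, the serum libraries held 70134758 reads in WT and 88376738 in KO cells, and the libraries from 2i + Vitamin C held 90649194 and 42672691. The KO 2i + Vitamin C library was the shallowest, with a median of 25 reads per site among sites with at least 10, against 42 to 50 in the other 3 libraries.

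Mouse ES cells in 2i media lose most of their DNA methylation, because the inhibitors lower the de novo methyltransferases and the maintenance factor UHRF1, and vitamin C stimulates the TET enzymes that oxidise 5-methylcytosine. Sequences known to keep methylation in this state are those bound by KRAB-ZFPs, which recruit KAP1 and the H3K9 methyltransferase SETDB1, above all IAP retrotransposons and imprinting control regions. IAP and ETn elements are LTR retrotransposons that still move in the mouse genome, and RLTR4 elements are relatives of murine leukaemia viruses.

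The sequences below are from the plus strand of mm9 and show where the sites sit. The first 5 windows had a median of 70.7% or more over their covered sites in KO 2i + Vitamin C, though single sites fell to 60.6%. The last 4 came from regions that kept methylation in WT cells but were among the lowest in KO cells. Capitals mark the CpGs that met the rule, and lower-case cg marks CpGs that did not or were not covered. Windows from regions over 250 bases show the stretch with the most of these sites.
Nap1l5, chr6:58856628-58856872: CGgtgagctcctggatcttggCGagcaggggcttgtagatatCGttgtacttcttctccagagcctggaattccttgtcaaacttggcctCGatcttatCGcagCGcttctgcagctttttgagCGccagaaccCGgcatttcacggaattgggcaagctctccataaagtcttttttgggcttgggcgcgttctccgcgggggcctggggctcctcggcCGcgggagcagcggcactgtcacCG
Cdh15, chr8:125389008-125389252: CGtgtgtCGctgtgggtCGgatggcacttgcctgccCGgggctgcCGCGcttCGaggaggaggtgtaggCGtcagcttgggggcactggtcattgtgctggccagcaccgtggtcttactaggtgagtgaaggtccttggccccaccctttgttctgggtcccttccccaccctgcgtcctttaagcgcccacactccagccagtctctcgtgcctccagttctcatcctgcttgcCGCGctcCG
Zfp629, chr7:134754522-134754724: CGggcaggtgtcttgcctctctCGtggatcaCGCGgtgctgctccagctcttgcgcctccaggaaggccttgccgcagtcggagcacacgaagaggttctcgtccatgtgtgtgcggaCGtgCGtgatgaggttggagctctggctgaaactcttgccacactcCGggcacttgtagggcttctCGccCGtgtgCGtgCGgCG
Unannotated region near Gm13687, chr2:80328444-80328678: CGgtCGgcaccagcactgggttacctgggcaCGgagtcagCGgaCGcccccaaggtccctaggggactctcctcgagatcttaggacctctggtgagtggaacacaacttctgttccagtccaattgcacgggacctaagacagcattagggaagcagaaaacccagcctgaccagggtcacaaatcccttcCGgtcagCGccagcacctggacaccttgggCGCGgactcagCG
IAP-like region near Olfr342, chr2:36368896-36369020: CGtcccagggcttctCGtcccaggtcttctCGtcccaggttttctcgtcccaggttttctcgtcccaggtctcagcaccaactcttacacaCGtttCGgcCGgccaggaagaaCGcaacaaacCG
Trappc9, chr15:72640310-72640517: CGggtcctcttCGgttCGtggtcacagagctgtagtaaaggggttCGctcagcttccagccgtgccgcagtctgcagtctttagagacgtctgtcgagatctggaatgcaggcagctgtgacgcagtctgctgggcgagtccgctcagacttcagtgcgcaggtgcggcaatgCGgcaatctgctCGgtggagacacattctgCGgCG
6030498E09Rik, chrX:36302822-36302954: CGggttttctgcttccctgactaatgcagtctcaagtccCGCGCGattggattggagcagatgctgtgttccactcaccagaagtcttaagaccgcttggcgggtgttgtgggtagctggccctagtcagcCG
ETn-like region, chr8:59285216-59285290: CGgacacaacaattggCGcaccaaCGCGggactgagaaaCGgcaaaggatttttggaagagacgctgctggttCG
Region near Gm11779, chr4:5138301-5138530: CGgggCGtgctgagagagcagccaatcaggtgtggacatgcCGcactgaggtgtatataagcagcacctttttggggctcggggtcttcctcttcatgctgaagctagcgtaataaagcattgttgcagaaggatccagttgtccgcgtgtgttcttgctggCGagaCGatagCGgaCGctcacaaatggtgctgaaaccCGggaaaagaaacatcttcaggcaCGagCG

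The sites lay mainly outside genes. Of the 32288 sites, 68.0% were intergenic, 22.1% intronic, 5.63% in coding exons, 2.92% in promoters (from 1000 bp upstream to 500 bp downstream of an annotated start) and 0.746% in UTRs of GENCODE genes. Among the other serum-methylated sites, 39.7% were intergenic, 35.9% intronic, 14.3% in coding exons and 6.90% in promoters. Read the other way, 28.8% of intergenic serum-methylated sites kept methylation, against 12.7% of intronic and 8.47% of coding sites. The median distance to an annotated transcript start was 29588.5 bp, compared with 14456 bp for the other sites. Local base composition differed little: the median GC content of the surrounding window was 54.0% against 53.0%, and the mean number of CpGs in it was 6.41 ± 3.30 (SD over sites) against 5.76 ± 3.05. These shares carry no test, since neighbouring sites are not independent and each condition is 1 library.

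Sequence present in several copies kept methylation more often than single-copy sequence. The 31 bases around the CpG occurred 2 or more times in mm9 for 37.2% of the sites and for 12.2% of the others. The share that kept methylation was 14.4% for single-copy sites, 40.8% for 2 copies, 46.4% for 3 to 9 copies, 47.0% for 10 to 99 copies and 34.1% for 100 copies or more. Read placement among near-identical copies was not given in the sources used here, so values at such sites may mix copies. Location mattered within single-copy sequence as well, where 22.2% of 55956 sites outside gene bodies and 9.30% of 84669 sites inside them kept methylation.

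IAP-like sequence held the highest share of the sequence families examined. A site was assigned to a family when its flanks aligned to a reference built from elements of that family. Of 2660 serum-methylated sites in IAP-like sequence, 1978 (74.4%) kept at least 70% methylation in WT 2i + Vitamin C. The counts were 326 of 523 (62.3%) in RLTR4-like and 275 of 542 (50.7%) in ETn-like sequence. The 3 largest regions supplied 89 of the 326 RLTR4-like sites, and the order of the families turned when sites were taken by position, with 63 of 176 (35.8%) between paired RLTR4 capture probes and 195 of 300 (65%) between paired ETn probes. Within 500 bp of a match to the IAPLTR1_Mm target sequence of the KRAB-ZFP Gm21082, 340 of 419 sites kept methylation (81.1%). Near matches to the IAPLTR4 sequence used with Gm13157 this was 98 of 153, near the MMETn sequence used with Rex2 43 of 109, and near the ORR1A2 sequence used with Zfp617 42 of 324. Matches to each of the other target sequences held at most 21 serum-methylated sites. The 3 families together accounted for 7.99% of the sites. Another 10295 sites (31.9%) had 2 or more copies but matched no family, and no repeat annotation was used here to name them.

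The KO libraries, which the rule did not use, gave the same order among annotated locations and among the sequence families assigned by alignment. At 78862 sites methylated at 80% or more in serum in both genotypes, with 10 reads in all 4 libraries, 17.2% stayed at 70% or more in KO 2i + Vitamin C. The KO share was 27% for intergenic, 10.6% for intronic and 6.72% for coding sites. It was 12.8% for single-copy sites and 36.5% for sites with 2 or more copies. IAP-like sequence again led with 62.9% of 1298 sites, against 75% at the same sites in WT cells. RLTR4-like sequence stood at 38.3% of 253 sites in KO and 69.2% in WT cells, and ETn-like sequence at 34.4% of 209 sites and 55.0%. Each family assigned by alignment was above the general level in the KO line, RLTR4-like and ETn-like sequence close to that of multi-copy sequence. The distance between the genotypes was widest for RLTR4-like and ETn-like sequence. By position the order turned in KO cells too, taking WT serum-methylated sites with 10 KO 2i + Vitamin C reads. Between paired RLTR4 probes 1.14% of 88 such sites stayed at 70% or more, below the general level, and between paired ETn probes 39.0% of 154.

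**Figure D1:**
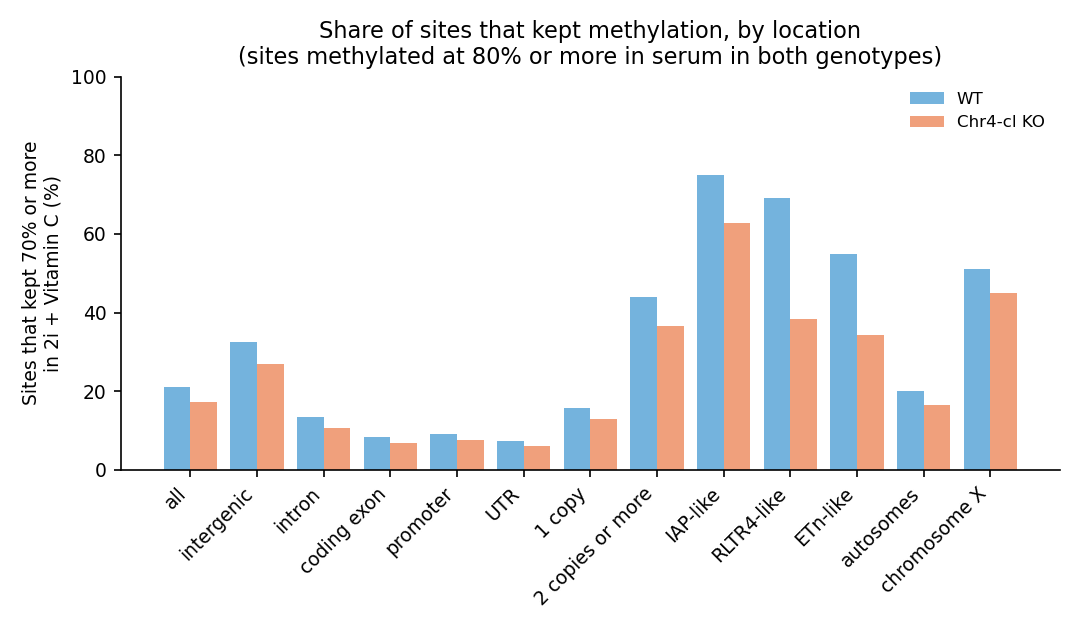
Share of sites that kept at least 70% methylation in 2i + Vitamin C (vertical axis, percent) by location, for WT (blue) and Chr4-cl KO (orange) ES cells at the same sites, each methylated at 80% or more in serum in both genotypes. WT bars use the values that chose the sites and KO bars do not; IAP-like sequence stands at 75% and 62.9% and coding exons at 8.32% and 6.72%.

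Chromosome X kept methylation at 47.7% of its 4931 serum-methylated sites, whereas the autosomes ranged from 11.4% on chromosome 11 to 26.4% on chromosome 3. On chromosome Y, 78 of 135 sites kept methylation. The X share was 43.8% for single-copy and 52.1% for multi-copy sequence, against 13.8% and 40.9% on the autosomes. In the KO libraries, 44.9% of 2334 X-linked sites and 16.4% of 76462 autosomal sites stayed at 70% or more. Gene content moved with these shares: 26.0% of serum-methylated sites on chromosome X and 68.9% on chromosome 11 were in gene bodies. Over the 19 autosomes the share in gene bodies and the share that kept methylation had a Pearson r of -0.85 (Spearman rho -0.84), a description over chromosomes of the same 2 libraries. The part of gene content in the result was not tested.

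Windows of 1 Mb, examined after the data were seen, showed where the sites gathered. Among 1226 windows with at least 50 serum-methylated sites the median share that kept methylation was 11.9% (interquartile range 7.17% to 23.4%), and 53 windows reached 60%. The highest share was in the window from 23 to 24 Mb of chromosome X, where 48 of 51 sites kept methylation (94.1%), followed by 50 of 55 sites from 26 to 27 Mb. On chromosome 7, 50 of 61 sites kept methylation from 69 to 70 Mb, a window that includes the imprinted genes Ndn and Magel2, although none of 3 sites of Magel2 itself did. The window from 33 to 34 Mb of chromosome 13 holds the Serpinb6 and Serpinb9 serine protease inhibitor genes, and 51 of its 67 sites kept methylation. The window from 91 to 92 Mb of chromosome 3 holds Lor, a gene of the epidermal differentiation complex, and 42 of its 55 sites did so. The KO 2i + Vitamin C mean over the sites of these 5 windows ranged from 74.4% to 82.3%.

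Neighbouring sites behaved alike over several kb. Of the serum-methylated sites 1 to 20 bp from a site that kept methylation, 74% also kept it, and the share was 60.6% at 201 to 500 bp, 49.4% at 1001 to 5000 bp and 30.8% at 5001 to 20000 bp. Around the other serum-methylated sites the share stayed between 8.59% and 13.4% at every distance. Chained with gaps of at most 500 bp, the sites formed 14730 regions, of which 7661 held a single site, 4090 at least 3 and 149 at least 10. The 1431 regions of at least 5 sites held 30% of all sites.

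**Figure D2:**
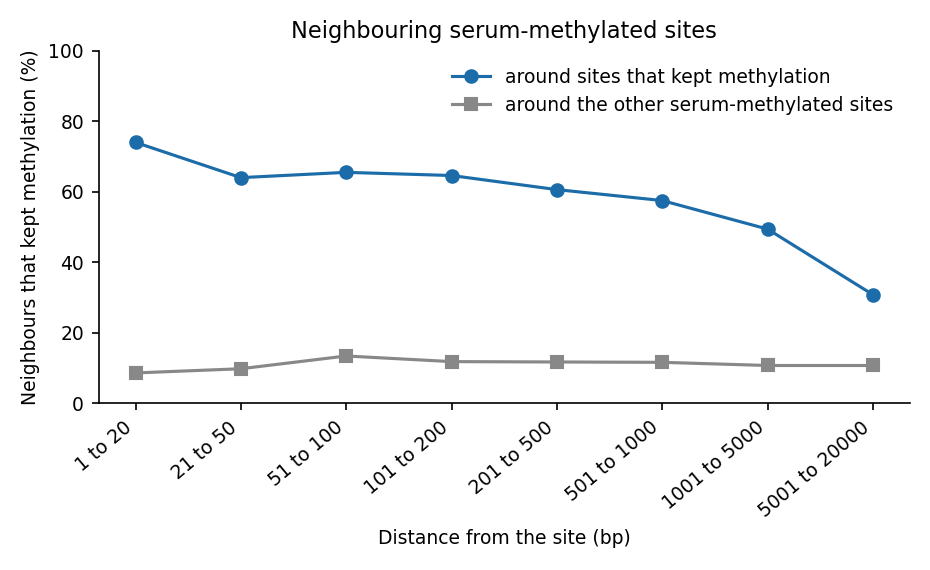
Percentage of neighbouring serum-methylated sites that kept methylation in WT 2i + Vitamin C (vertical axis) against distance in bp (horizontal axis, unequal bins), around sites that kept methylation (blue circles) and around the other serum-methylated sites (grey squares). The blue line goes from 74% at 1 to 20 bp to 30.8% at 5001 to 20000 bp, and the grey line stays at or below 13.4%.

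In WT cells the sites averaged 94.8% ± 4.62 (SD over sites) in serum and 80.8% ± 7.39 in 2i + Vitamin C, the values they were selected on. Just outside the threshold, 9851 sites between 65% and 70% averaged 67.4% in WT and 59.1% in KO 2i + Vitamin C. Just inside it, 8337 sites between 70% and 75% averaged 72.2% and 64%, so the threshold marks no step.

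In KO cells most of the sites also kept methylation, at a somewhat lower level. In KO serum, 28397 sites averaged 94.7% ± 5.20. In KO 2i + Vitamin C, 17708 sites had 10 reads (54.8% of all) and averaged 72.6% ± 14.9, with a median of 74.3%. Of these, 11037 (62.3%) stayed at 70% or more, 1173 were below 50% and 79 below 20%. The other serum-methylated sites averaged 38.6% ± 18.5 in the same library, and 5.07% of them reached 70%.

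KO methylation followed the WT level through the whole range. The KO mean was 11.1% where WT 2i + Vitamin C lay below 10%, 48.6% for WT values of 50% to 60%, 66.6% for 70% to 80%, 76.2% for 80% to 90% and 83.5% for 90% to 100%. KO values were thus above WT at the low end and below it at the high end. At 16857 sites with 10 reads in all 4 libraries the KO minus WT difference was -8.28 points in 2i + Vitamin C (SD over sites 13.1, median -6.67) and -0.126 points in serum. The other serum-methylated sites differed by -3.59 points in 2i + Vitamin C. WT 2i + Vitamin C values defined the bins and both sets of sites, so these differences are a description. The part of this choice in them was not tested.

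**Figure D3:**
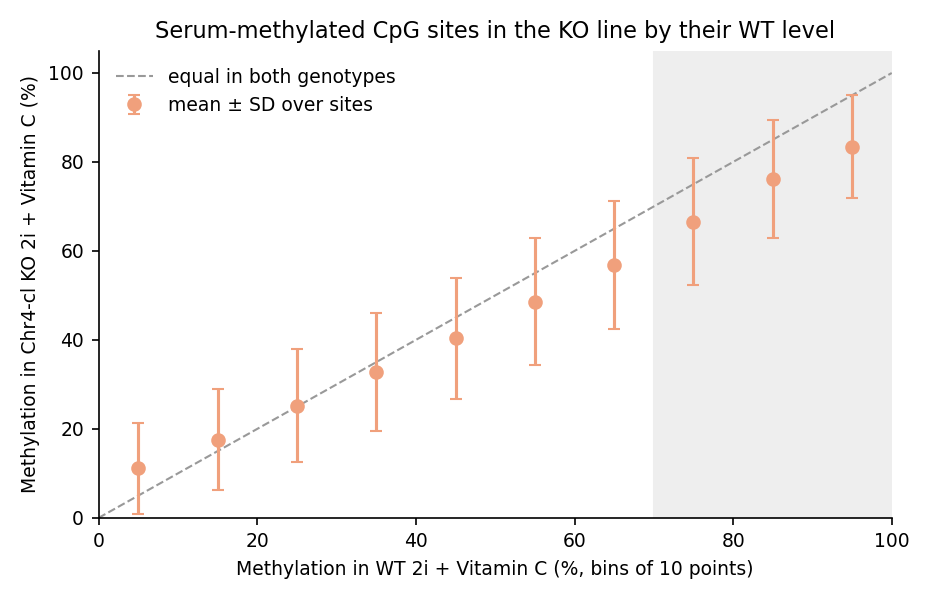
Mean methylation in Chr4-cl KO 2i + Vitamin C (vertical axis, percent, bars show SD over sites) of serum-methylated CpG sites in bins of 10 points of their WT 2i + Vitamin C level (horizontal axis, percent). The dashed line marks equal values, the grey area the bins the rule selected; KO means rise from 11.1% to 83.5% and lie below the line in the grey area.

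The sites chosen in the KO libraries overlapped those chosen in WT cells. With the same thresholds applied to the KO libraries, at 400195 sites with 10 reads in all 4, 13808 sites qualified in KO and 16857 in WT cells. They shared 10433 sites, which are 61.9% of the WT set and 75.6% of the KO set. Sites chosen in WT cells averaged 80.9% in WT and 72.7% in KO 2i + Vitamin C, and sites chosen in KO cells averaged 80.5% in KO and 77.4% in WT. Each set was thus lower in the genotype that did not choose it, by less for the KO set.

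Tested site by site on the reads, 429 of 17708 sites (2.42%) were lower in KO than in WT 2i + Vitamin C by at least 20 points (Fisher's exact test, two-sided, Benjamini-Hochberg adjusted p under 0.05 over all 458443 sites tested), and none was higher. Over all sites tested, 0.361% were called lower and 0.0897% higher. WT 2i + Vitamin C chose the sites, so the count is a description and nothing is read from it. In serum, 28 of 28397 sites (0.0986%) were lower in KO cells and none was higher, beside 0.115% and 1.82% of all sites. The rule set a floor of 80% in WT serum, which left almost no room for a rise of 20 points. The absence of higher calls in serum was thus fixed by the rule, and nothing is read from it. Each test compares 2 libraries, not genotypes.

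Within the KO line, which the rule did not use, fewer of these sites than of the other serum-methylated sites were called lower in 2i + Vitamin C. Of 16857 sites, 6746 (40%) were lower in 2i + Vitamin C than in serum by the same test, and 2 were higher. Among the other serum-methylated sites 58690 of 65824 (89.2%) were lower. Over all sites tested 28.6% were lower and 0.0297% higher, a share that includes the many sites unmethylated in both media. The mean change within KO cells was -21.9 points at these sites and -52.7 points at the others.

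The families differed in how far they fell in the KO line. At the 983 IAP-like sites with 10 reads in all 4 libraries, mean methylation in 2i + Vitamin C was 84.8% ± 7.48 in WT and 79.6% ± 13.3 in KO cells, a difference of -5.25 points. At 179 RLTR4-like sites it was 83.7% ± 7.07 and 66.3% ± 20.8, a difference of -17.3 points. At 120 ETn-like sites it was 81.4% ± 6.79 and 68.6% ± 20.6, a difference of -12.9 points. Sites with no family match differed by -8.34 points. By the median, the difference was -13.2 points for RLTR4-like, -6.58 for ETn-like, -4.03 for IAP-like and -6.75 for unmatched sites, so ETn-like sites were below unmatched sites in the mean but not in the median. KO values were lower by 40 points or more at 17 RLTR4-like and 13 ETn-like sites, and the SD of the difference was 19.4 in both families. WT 2i + Vitamin C chose these sites, so the differences are a description. Over all serum-methylated sites with 10 reads in all 4 libraries, the mean difference was -4.05 points for IAP-like and -4.49 for unmatched sites. There it was -12.4 for ETn-like and -16.9 for RLTR4-like sites. RLTR4-like regions on chromosomes 8 and 5 held 50 and 31 of the chosen sites with 10 reads in all 4 libraries.

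Called sites made up a larger share of RLTR4-like and ETn-like than of IAP-like sequence, a description with no test. Of the RLTR4-like sites tested, 32 of 189 (16.9%) were called lower in KO 2i + Vitamin C, as were 13 of 127 ETn-like sites (10.2%), 10 of 1050 IAP-like sites (0.952%) and 374 of 16342 sites with no match (2.29%). Single RLTR4-like regions on chromosomes 1, 8, 5 and 12 held 9, 7, 6 and 5 called sites. The RLTR4-like share thus rests mostly on a few loci, whose CpGs are not independent. The 429 called sites lay in 317 regions, 257 of which held 1 called site, and 24 regions held at least 3. Their median coverage was 58 reads in KO 2i + Vitamin C, against 30 over all sites tested, so calls gathered where the libraries were deep. Between paired capture probes of RLTR4 elements, 19 sites had a KO 2i + Vitamin C mean of 45.9% ± 23.3, and between those of ETn elements 99 sites had a mean of 70% ± 20.

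**Figure D4:**
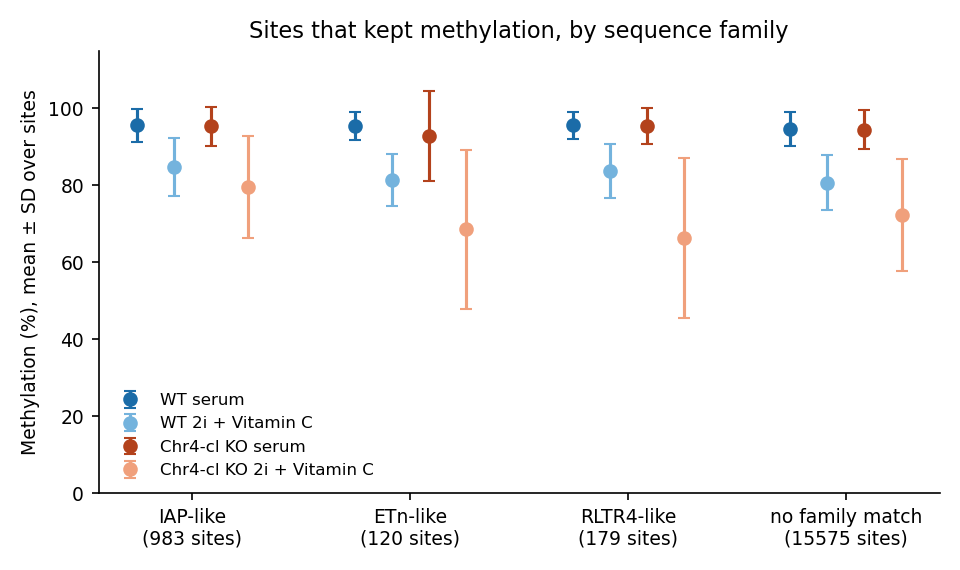
Mean methylation (vertical axis, percent, bars show SD over sites) in the 4 libraries at the chosen sites with 10 reads in every library, by sequence family (horizontal axis, with the number of sites). Serum values lie above 90% in each family; the KO 2i + Vitamin C mean is 79.6% in IAP-like, 68.6% in ETn-like, 66.3% in RLTR4-like sequence and 72.3% elsewhere.

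Among regions, 741 held at least 5 sites with 10 reads in all 4 libraries, and their reads were pooled over those sites. The median region stood at 83.5% in WT and 77.6% in KO 2i + Vitamin C. In KO cells 596 of the 741 regions (80.4%) stayed at 70% or more, the values running from 10.5% to 95.8%, and 9 regions were below 50%. The 100 IAP-like regions had a KO median of 81.7%, the 7 ETn-like regions one of 78.3%, the 13 RLTR4-like regions one of 67.9% and the 621 regions without a match one of 77.2%. Intervals given below are 95% Wilson intervals of the pooled reads and cover counting error only, since PCR copies and CpGs on one read are not independent.

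Several of the regions with the most sites were RLTR4-like. The largest, of 52 sites, was an RLTR4-like stretch at chr8:125951104-125954210 within the Gm20388 transcript, with 96.7% in WT serum, 81.9% in WT 2i + Vitamin C (interval 81.6 to 82.2), 95.7% in KO serum and 67.9% in KO 2i + Vitamin C (67.5 to 68.3). Its narrow intervals rest on 64058 WT and 51920 KO reads in 2i + Vitamin C over 50 sites. The median over the chosen sites was 30 reads per site in KO 2i + Vitamin C. The part of this depth in the values was not tested. The next was an RLTR4-like stretch of 32 sites at chr5:23207734-23209077, with 84.3% in WT and 72.3% in KO 2i + Vitamin C (70.5 to 74.1). Both were below the median region in KO cells. Another RLTR4-like region, of 22 sites at chr4:146597900-146599111, lies inside the deleted cluster. None of its sites had 5 or more KO 2i + Vitamin C reads. In all, 81 of the 32288 sites lay between the outermost listed genes of the deleted cluster, where the WT libraries held 16546 reads and the KO libraries 284. Both read counts leave out sites with fewer than 5 reads in the library.

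Some coding exons were also among the largest regions. In Odz2, which encodes a teneurin of neuronal cell surfaces, 24 sites at chr11:35837315-35838311 had 96.9% in WT serum, 78.1% in WT 2i + Vitamin C, 96.7% in KO serum and 77.1% in KO 2i + Vitamin C (74.1 to 79.9). In Zfp629, a zinc finger gene, 23 sites had 95.7%, 79.1%, 96.8% and 74.6% (72.5 to 76.6) in the same order. Both genes kept methylation at similar levels in the 2 genotypes, with overlapping 2i + Vitamin C intervals for Odz2 and separate ones for Zfp629 (WT interval 77.4 to 80.8). In an intron of Flg2, a filaggrin family gene of the epidermis, 26 sites were found, and the 6 covered in all libraries had 90.8% in WT and 91.2% in KO 2i + Vitamin C. The other 4 of the 10 largest regions, near Cfhr3, 9330159F19Rik, Gm4732 and Gm16404, were intergenic and ranged from 66.8% to 82.4% in KO 2i + Vitamin C, the highest value resting on 3 of 20 sites.

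The highest KO values came from IAP-like and single-copy regions. The region near Gm12005 at chr11:13566241-13566367 had 95.8% in KO 2i + Vitamin C (89.7 to 98.4) and 90% in WT. The region near Gm13687 printed above had 93.9% (90.6 to 96.1) in KO and 85.1% (82.7 to 87.2) in WT 2i + Vitamin C, and its 10 sites ranged from 90% to 100% in KO cells. The IAP-like region near Olfr342 had 93.3% in KO and 88.3% in WT cells, and its 7 covered sites ranged from 85% to 100%. IAP-like regions near Papss1 and in an intron of Svil, which encodes supervillin, had 94.1% and 93.0% in KO 2i + Vitamin C. A region in an intron of Eml6, which encodes a microtubule-associated protein, had 92.7%. These regions were picked as the extremes of the KO values, and the KO reads behind each numbered between 57 and 295.

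Of the 8 regions with the lowest KO values, 4 were in retrotransposon-like sequence. Below 50% in KO 2i + Vitamin C were 2 of 13 RLTR4-like, 1 of 7 ETn-like, 1 of 100 IAP-like and 5 of 621 unmatched regions. IAP-like regions were thus about as rarely low as unmatched ones. An RLTR4-like region of 5 sites at chr12:19249631-19249791 had 92.7% in WT serum, 82.6% in WT 2i + Vitamin C, 88.1% in KO serum and 10.5% in KO 2i + Vitamin C (6.37 to 16.9). A second RLTR4-like region at chr1:173413179-173413578 had 95.9%, 77.8%, 92.0% and 11.0% (6.25 to 18.6) in the same order, and 9 of its sites were called lower. Both were methylated in KO serum close to the WT level and low in KO 2i + Vitamin C alone. The ETn-like region printed above had 94.7%, 84.1%, 88.6% and 29.0% (22.9 to 35.9), and 3 of its 6 sites were called lower. These 6 sites ranged from 75% to 92.9% in WT and from 12.9% to 38.7% in KO 2i + Vitamin C. The WT values rest on 12 to 14 reads per site. The rule set a floor for the WT values and the region was picked for its low KO value, so this separation is a description. In an intron of Atp8a2, which encodes a phospholipid flippase, an IAP-like region of 5 sites had 80% in WT and 42.4% in KO 2i + Vitamin C (30.6 to 55.1), and none of its sites was called.

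Others of the lowest regions matched no family. In an intron of 6030498E09Rik on chromosome X, 5 sites had 93.3% in WT serum, 79.7% in WT 2i + Vitamin C, 91.2% in KO serum and 13.5% in KO 2i + Vitamin C (11.0 to 16.5). The KO 2i + Vitamin C library held 607 reads there, against 114 to 143 in the other 3. The region near Gm11779 on chromosome 4 had 84.8% in WT and 44.1% in KO 2i + Vitamin C (42.6 to 45.6), but its sites did not move together. The first 3 CpGs of the printed window had 30.2%, 18.4% and 62.0% from 1158 to 1196 KO reads each, and the next 4 had 77.0% to 92.4% from 140 to 148 reads. Reads in KO 2i + Vitamin C were also more numerous in the ETn-like region, with 183 against 82 to 95 in the other 3 libraries. The median copy number of the sites was 42 in the RLTR4-like region of chromosome 12, 40 in the ETn-like region and 19 in 6030498E09Rik. The part of coverage and copy number in these low values was not tested. A region near Gm20424 at chr19:45265747-45266498 was low in both KO libraries, with 90.6% in WT serum, 77.6% in WT 2i + Vitamin C, 59.6% in KO serum and 43.8% in KO 2i + Vitamin C.

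**Figure D5:**
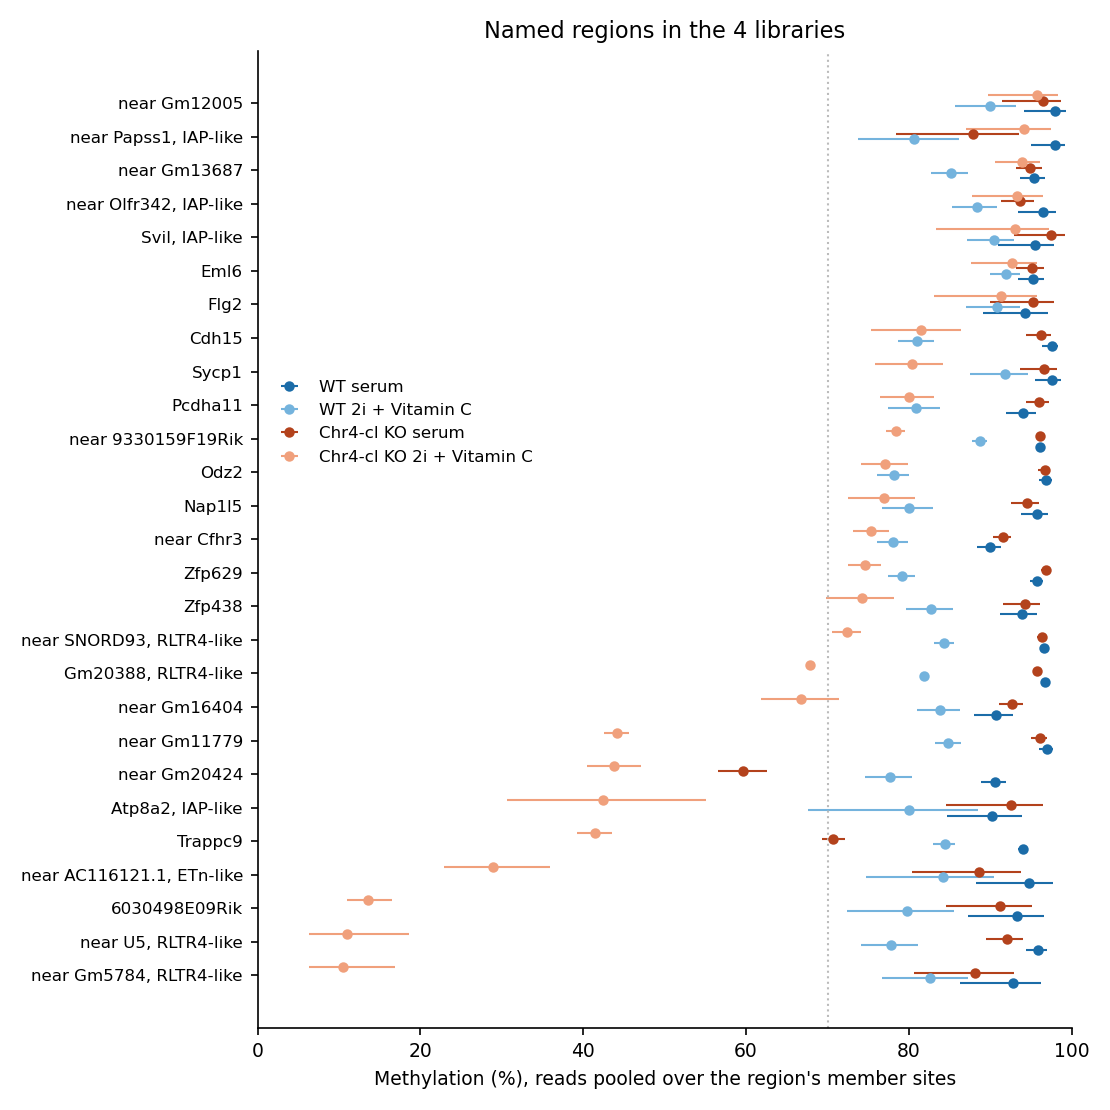
Methylation (horizontal axis, percent) in the 4 libraries of the named regions with at least 5 sites of 10 reads in all libraries, ordered by KO 2i + Vitamin C; points are reads pooled over sites, bars are 95% Wilson intervals and the dotted line marks 70%. The lowest orange points are at 10.5%, 11.0% and 13.5%, and serum points of Trappc9 and the region near Gm20424 separate by genotype.

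Imprinted genes, in which one parental allele is normally methylated, held 64 of these sites among 314 serum-methylated sites (20.4%), near the 19.07% of all serum-methylated sites. The rule required 80% in WT serum, so an imprinted region with 1 methylated allele could not enter. Only 9 of 27 measured genes of the list had any. The Trappc9 locus, whose intron is known to hold the imprinted transcript Peg13, stood apart from the other imprinted genes in the KO line. Its region of 10 sites had 94.1% in WT serum (93.4 to 94.7), 84.4% in WT 2i + Vitamin C (83.0 to 85.7), 70.7% in KO serum (69.3 to 72.1) and 41.4% in KO 2i + Vitamin C (39.3 to 43.6). At the 8 printed CpGs the KO values ranged from 58.9% to 74.5% in serum and from 33.3% to 46.6% in 2i + Vitamin C. All 8 were called lower in both media. They were 8 of the 18 sites in the whole set that were called lower in KO cells in both media. The rule set a floor for the WT values in both media, and the region was among the lowest in KO 2i + Vitamin C. Its distance from WT is thus a description.

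Among the other imprinted loci, Nap1l5, Cdh15 and Rtl1 kept methylation in both genotypes. The H19 sites did so in WT cells but averaged below the threshold in KO 2i + Vitamin C, and Gnas could not be compared. At Nap1l5, a paternally expressed gene within an intron of Herc3, 9 sites covered in all libraries had 95.7% in WT serum, 80% in WT 2i + Vitamin C (76.7 to 83.0), 94.6% in KO serum and 76.9% in KO 2i + Vitamin C (72.5 to 80.8). In Cdh15, which encodes M-cadherin and carries an imprinted methylated region, 11 sites had 97.5%, 81.0%, 96.2% and 81.5% in the same order. At Rtl1, a gene derived from a retrotransposon in the Dlk1 domain, 4 sites had 76.6% in WT and 71.3% in KO 2i + Vitamin C. At H19, a maternally expressed non-coding RNA, 2 sites had 75.4% in WT and 54% in KO 2i + Vitamin C. Gnas held 4 sites with 98.7% in WT serum and 90.2% in WT 2i + Vitamin C and too few KO reads to compare.

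The other gene lists are read against the same 19.07%. Germline genes, normally silenced by promoter methylation, held 10 of 67 serum-methylated sites (14.9%), 7 of them in an intron of the synaptonemal gene Sycp1, with 91.8% in WT and 80.3% in KO 2i + Vitamin C. These 7 sites had a median copy number of 41 and lay 49172 bp from the nearest annotated start, so they are not promoter sites. The list of DNA methylation machinery genes held 7 of 109, naive pluripotency genes 2 of 20 and the KAP1 pathway 0 of 17. Clustered protocadherins, neuronal adhesion genes, held 18 of 50 (36.0%), 16 of them in Pcdha11, where the larger region of 7 sites had 80.9% in WT and 80% in KO 2i + Vitamin C. KRAB-ZFP and other Zfp genes held 109 of 1057 sites (10.3%), with Zfp629 alone giving 27 of them. At Zfp438, all 9 serum-methylated sites kept methylation, with 82.7% in WT and 74.2% in KO 2i + Vitamin C over the 7 covered in all libraries.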

How the data were processed

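Per the labels, reads were processed with Trim Galore and Bismark against mm9, and a custom script of the study combined both strands of each CpG; versions are not given in the sources used here. The authors deposited, for each CpG dyad, the read count, the methylated read count and the methylated fraction. The WT serum and KO 2i + Vitamin C tables are each made of 2 tables, one written after the other, and positions listed more than once in a file (332 and 830 rows) were dropped. Fractions were recomputed from the counts (Python 3.11.15, pandas 2.3.3). The 4 libraries give 1 value per condition, and depth sets the precision: 10 reads per site was the minimum.

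The sites and gene lists were chosen with earlier results of these data known. Sites were compared between libraries by two-sided Fisher's exact tests on methylated and unmethylated counts, with Benjamini-Hochberg adjustment over all sites with 10 reads in both libraries, and a call also needed 20 points; the code was tested on simulated data. Chained regions allowed gaps of 500 bp. Regions named are the 10 with the most sites, the 8 lowest and 6 highest in KO 2i + Vitamin C among those with 5 sites covered in all libraries, and regions of at least 3 sites overlapping listed genes. List genes were extended by 5000 bp upstream. Genes are from GENCODE vM1. Copies of the 31 bases around a site were counted in mm9. Family references came from pairs of IAPLTR1_Mm target copies 3 to 8 kb apart and from paired ETn and RLTR4 capture probes, using positions and sequences in the study's supplements (558, 150 and 13 elements); flanks had to align over 100 bp at 80% identity (blastn 2.17.0). Alternatives covered coverage, thresholds, call rules and pooling.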

Additional observations from a re-analysis of the deposited data

How the results depend on the processing

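No paired analysis was possible because each condition is 1 library. Of 85 alternative values, 57 stayed within the limits set for a change and 28 moved. Each is a count, level or share, so no direction was compared. The number of sites was 16393 with a WT 2i + Vitamin C threshold of 80% and 12183 when the lower Wilson bound had to reach 70%. Under those 2 settings, sites called lower in KO 2i + Vitamin C numbered 248 and 240, those called lower in KO serum 13 and 11, and those lower in 2i + Vitamin C within KO cells 2164 and 1927. A change of 20 points without the p-value gave 2819 and 229 sites in 2i + Vitamin C and serum. The adjusted p with 30 points gave 13 in serum and 3878 within KO cells. Thinning to equal coverage gave 234 in 2i + Vitamin C. The share that met the thresholds in KO cells was 64.1% and 58.0% at 20 and 5 reads, and 51.6% at the 80% threshold. It was 58.9% with 90% in serum, 61.1% on autosomes and 81.8% among sites chosen by the Wilson bound. That bound was set on WT 2i + Vitamin C, so the 81.8% is not read against the plain thresholds. The share in genes was 30.5% and 32.7% at 20 and 5 reads, 23.3% at the 80% threshold, 21.3% under the Wilson bound and 32.6% on autosomes. The share in multi-copy sequence was 42.8% at the 80% threshold, 36.5% with 90% in serum, 42.7% under the Wilson bound and 36.1% on autosomes. This last measure, the 1 Mb windows and the shares within the KO libraries were chosen after seeing the data, and the planned share in soft-masked repeats was not run because the genome used marks none. The cause of these changes was not tested. With a median of 30 reads per site in KO 2i + Vitamin C, many single-site changes of moderate size could not be called.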
